A study of Ovis aries with 36 samples.

Results

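The loci described here share 1 stretch of sheep chromosome 12, chr12:18028459-18720283 of build Oar_v3.1, which is 691.8 kb long. The study relates an unannotated transcript unit inside this stretch, and not the stretch as a whole, to the gene ESRRG. The position of ESRRG itself was not analysed here. All loci whose span overlaps this stretch were taken if they held at least 36 counts over the 36 samples. This gave 75 of the 31136 loci of the series, of which 73 carry no Ensembl identifier and are called unannotated. The other 2 are XLOC_005387, listed as ENSOARG00000011335, and XLOC_005034, listed as ENSOARG00000022702. All of them are listed with the same start and end, so the position of each locus inside the stretch, its exons and its strand were not analysed here. The tables pair neither Ensembl identifier with a gene symbol, and no locus is called ESRRG below.

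The stretch was chosen by a measured difference, that of an unannotated locus in it between semitendinosus (ST) and supraspinatus (SS) in these same samples. All values that set SS against ST are therefore given as a description, without a test. Tests were run among the 7 muscles which that choice did not use.

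ESRRG encodes estrogen-related receptor gamma, an orphan nuclear receptor that acts on its targets without a known natural hormone. With PGC-1 family coactivators it switches on genes of mitochondrial respiration and fatty acid oxidation, and it is known for its high level in heart and in slow, oxidative skeletal muscle. An unannotated locus is a piece of transcribed sequence that the assembly of reads put together where the annotation holds no exon, and nothing is known here of its product.

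RNA-Seq counts came from 9 muscles of each of 4 unrelated lambs, crosses of Poll Dorset, aged 14 months and with live weights between 67 and 72 kg. All were untreated and shared 1 feeding regime, so muscle is the factor compared and the animal is the replicate. Beside ST, the thigh and rump muscles were gluteus medius (GM), gluteobiceps (GB), adductor (AD), semimembranosus (SM) and rectus femoris (RF). SS is a shoulder muscle, and the loin gave psoas major (PM) and longissimus lumborum (LL). Each was sampled in the mid superficial belly. Levels are counts scaled to a common library size (CPM) after TMM normalization, which rescales each library to a common reference.

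Depth was 3699148 to 6427422 counts per sample, and the 4 loci with most counts in the series took 65.7 to 78.3% of them. The 75 loci together held 0.0022 to 0.138% of a sample's counts. A level of 3 counts, the least that can be told from 0, corresponded to 0.365 to 1.02 CPM, which covers counting error only. Each sample is bulk tissue, so fewer cells of a type and less RNA per cell cannot be told apart. The cell type markers that would check the tissue could not be looked up, since the tables hold no symbols. Of the slow fibre genes, 8 of 12 could be found through coordinates that the study prints, and they are used near the end.

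No other span in the series holds as many loci. The span that comes next, on chromosome 3, holds 44 loci and the one after it, on chromosome 6, holds 40. The unannotated loci are numbered without a gap from XLOC_005728 to XLOC_005800. Where unannotated loci with consecutive numbers have spans of their own elsewhere in the series, the start of the later one was not lower in 5705 cases and lower in 2. The numbers thus follow position along a chromosome elsewhere. Inside the shared span this order could not be checked.

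The loci differed widely in abundance. Their counts over the 36 samples ran from 39 to 7638, with a median of 209, and summed to 63413, of which the unannotated loci held 89%. The most abundant was XLOC_005799 with 7638 counts, followed by XLOC_005795 with 6574 and the annotated XLOC_005387 with 5707. XLOC_005738, with 39 counts, lay just inside the minimum. XLOC_005388, an Ensembl locus (ENSOARG00000023153) with 27 counts, lay just outside it. A filter on low counts left 51 of the 75 loci for testing, namely 49 unannotated loci and both Ensembl loci, and the other 24 held 39 to 174 counts each. The filter used all 36 samples, so a locus could pass through the muscle or animal in which it was high. With only the 28 samples of the 7 muscles other than ST and SS, 47 of the 75 passed, among 12146 of all loci. Without animal 1, 36 of the 75 passed, among 12658 of all loci, against 12461 with all samples.

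One animal stood apart before any muscle was compared. The unannotated loci summed to a mean of 579 CPM over the 9 muscles of animal 1, against 200, 217 and 152 CPM in animals 2, 3 and 4. The gap was widest in LL, where animal 1 had 1135 CPM and the others had 162, 179 and 122 CPM. It was narrowest in RF, where animal 1 was 1.46 times the mean of the others, against 7.35 times in LL. Animal 1 thus lay above the other 3 animals in all muscles for the summed level, although in ST and RF by little.

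The same animal was highest in the mean over muscles for 49 of the 51 loci tested, where 28.9% of all loci tested have that pattern. Of the 24 loci that were not tested, 21 had it too. The libraries of animal 1 also held fewer counts, 4476589 on average against 5851356 to 6088044 in the others. That difference moved with the level, and its part in the result was not tested. The study drew the animals from different flocks and spread the samples over several sequencing lanes. Which samples shared a lane is not given in the sources used here, and the part of flock or lane was not tested. Unannotated loci inside Ensembl spans elsewhere, 1820 in number, were not higher in animal 1, with a mean of 4512 CPM against 4821 to 5788 CPM. Of the spread of log2 CPM over the 36 samples, the animal took a median of 37.9% and the muscle 32.1% in the 51 loci. Over all loci tested these medians were 15.4% and 28.7%. The tests and some levels by muscle were also run without animal 1 or without its LL sample, and part of these results is given below. Medians over pairs of muscles, correlations, shares of spread, profiles by locus number and most counts of patterns are given with all animals only.

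**Figure D1:**
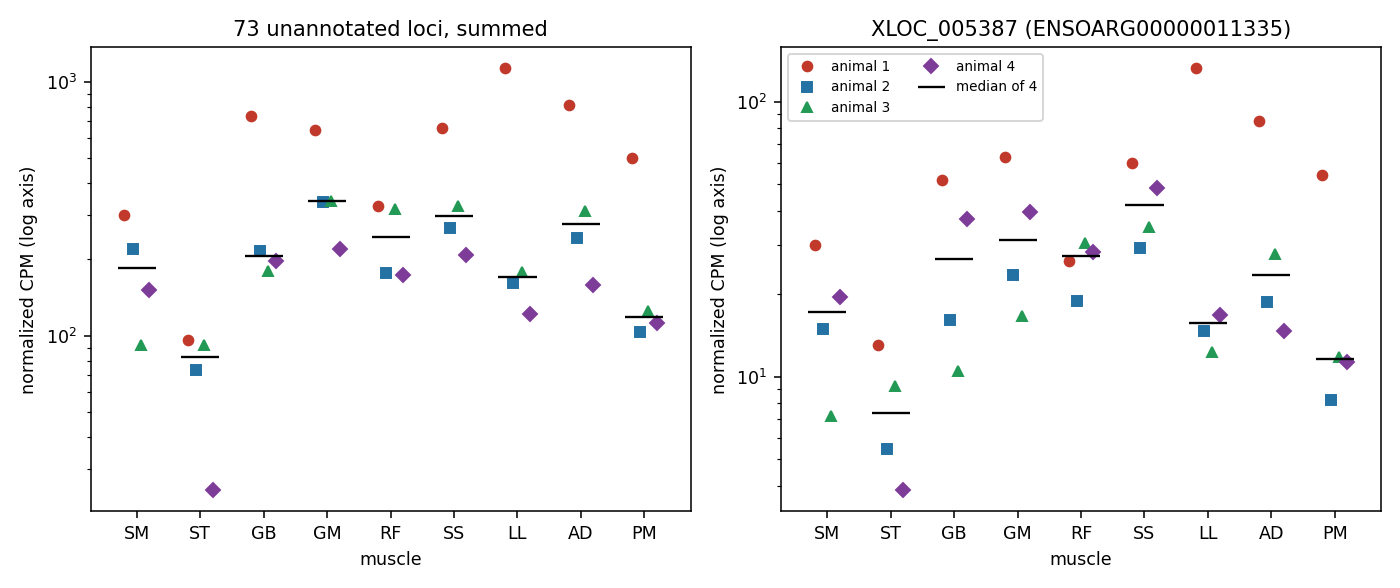
Level in each of the 36 samples as normalized CPM on a log axis, for the sum of the 73 unannotated loci (left) and for XLOC_005387 (right), by muscle. Symbols are the 4 animals and the bar is their median. Animal 1 is above the others in all 9 muscles for the sum, furthest in LL at 1135 CPM, and ST is the lowest muscle in the sum of each animal.

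The summed level of the unannotated loci was lowest in ST in each of the 4 animals. The 4 ST samples had 96.1, 73.2, 92.0 and 24.7 CPM in animals 1 to 4. The 4 GM samples had 645, 338, 339 and 220 CPM, and GM was the highest muscle in animals 2, 3 and 4. The 4 SS samples had 656, 267, 324 and 208 CPM. All SS and all GM samples thus lay above all ST samples.

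The levels in PM were 503, 104, 125 and 112 CPM, and those in SM were 299, 219, 92.5 and 152 CPM. The muscle next to ST at the low end was PM in animals 2 and 4 and SM in animals 1 and 3. GB had 734, 216, 180 and 197 CPM, RF had 325, 177, 315 and 174 CPM, and AD had 815, 242, 311 and 159 CPM. These 3 muscles overlapped one another and also GM, SS and LL.

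To take the animals' own levels off, each muscle was set against the mean of the 9 muscles of its animal. ST stood at 28% ± 13.5 of that mean (SD, n = 4), PM at 67.4% ± 15.8 and SM at 75.9% ± 33.7. RF was at 101% ± 37.7, LL at 110% ± 57.4 and GB at 112% ± 21.7. AD was at 127% ± 18.2, SS at 133% ± 14.8 and GM at 145% ± 24.8. ST and PM, next to each other in this order, differed by more than either SD. All other neighbours in the order differed by less than the larger of their SDs. Without animal 1, LL fell from 110% to 81.2%.

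In the Ensembl locus XLOC_005387, ST was again the muscle with the lowest mean, but SS and not GM stood at the top when animal 1 was left out. Its ST samples had 13, 5.45, 9.23 and 3.86 CPM, and its SS samples had 59.9, 29.4, 35.1 and 48.7 CPM. GM had 62.9, 23.4, 16.6 and 39.6 CPM, PM had 54.0, 8.24, 11.8 and 11.3 CPM, and SM had 30.0, 14.9, 7.20 and 19.4 CPM. All SS samples were above all ST samples, whereas GM and PM overlapped through animal 1.

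In LL the same locus had 132 CPM in animal 1 and 14.6, 12.3 and 16.7 CPM in the others. GB, RF and AD together ran from 10.5 to 85.0 CPM. As a share of its animal's mean, XLOC_005387 was at 30.7% ± 15.5 in ST, 63.9% ± 22.0 in PM and 65.3% ± 22.9 in SM (SD, n = 4). At the upper end it was at 126% ± 31.1 in GM and 169% ± 44.1 in SS. ST again differed from its neighbour PM by more than either SD, and GM from SS by less than the SD of SS.

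The other Ensembl locus, XLOC_005034, with 1298 counts, had another order. It was low in ST, with 1.59, 2.40, 2.14 and 1.29 CPM, and in SM, with 1.36, 4.25, 0.533 and 1.90 CPM. In SS it had 17.6, 4.06, 9.39 and 4.04 CPM, and in PM 23.6, 2.49, 5.57 and 5 CPM. PM was thus among its higher muscles, at 131% ± 48.4 of the animal's mean (SD, n = 4) next to 144% ± 36.6 in SS. Its LL sample of animal 1 had 43.4 CPM against 1.07 to 3.93 CPM in the other LL samples.

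Across the loci, the low level in ST was widespread. ST had the lowest mean log2 CPM of the 9 muscles in 65 of the 75 loci, of which 46 are among the 51 tested. Over all loci tested the share with the lowest mean in ST was 15%. SS was above ST in 4 of 4 animals for 56 of the 75 loci, among them 46 of the 51 tested, where 15.2% of all loci tested have that pattern. For 37 of the 51, all SS samples were above all ST samples, against 5.81% of all loci tested. These counts rest on the contrast that picked the stretch, and nothing is read from them.

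ST was the lowest muscle within each of the 4 animals for 10 of the 51 loci, where 0.449% of all loci tested have that pattern. The median of SS minus ST over the 51 was 1.86 on the log2 CPM scale, with a range of 0.32 to 2.79 and a median of 0.02 over all loci tested. GM, a muscle outside that contrast, was above ST by a median of 1.67. This value shares the ST samples with the contrast that picked the stretch, and it too is a description.

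In XLOC_005771, where SS minus ST varied least between animals among the loci given by sample here, ST held 2, 2, 1 and 1 counts and SS held 17, 20, 11 and 11 counts in animals 1 to 4. These are 0.531, 0.436, 0.165 and 0.215 CPM in ST against 3.89, 2.90, 1.95 and 2.12 CPM in SS. The ST samples lie under the level of 3 counts, so no fold is given. GM had the highest mean of this locus, with 6.26, 2.84, 3.34 and 3.77 CPM.

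**Figure D2:**
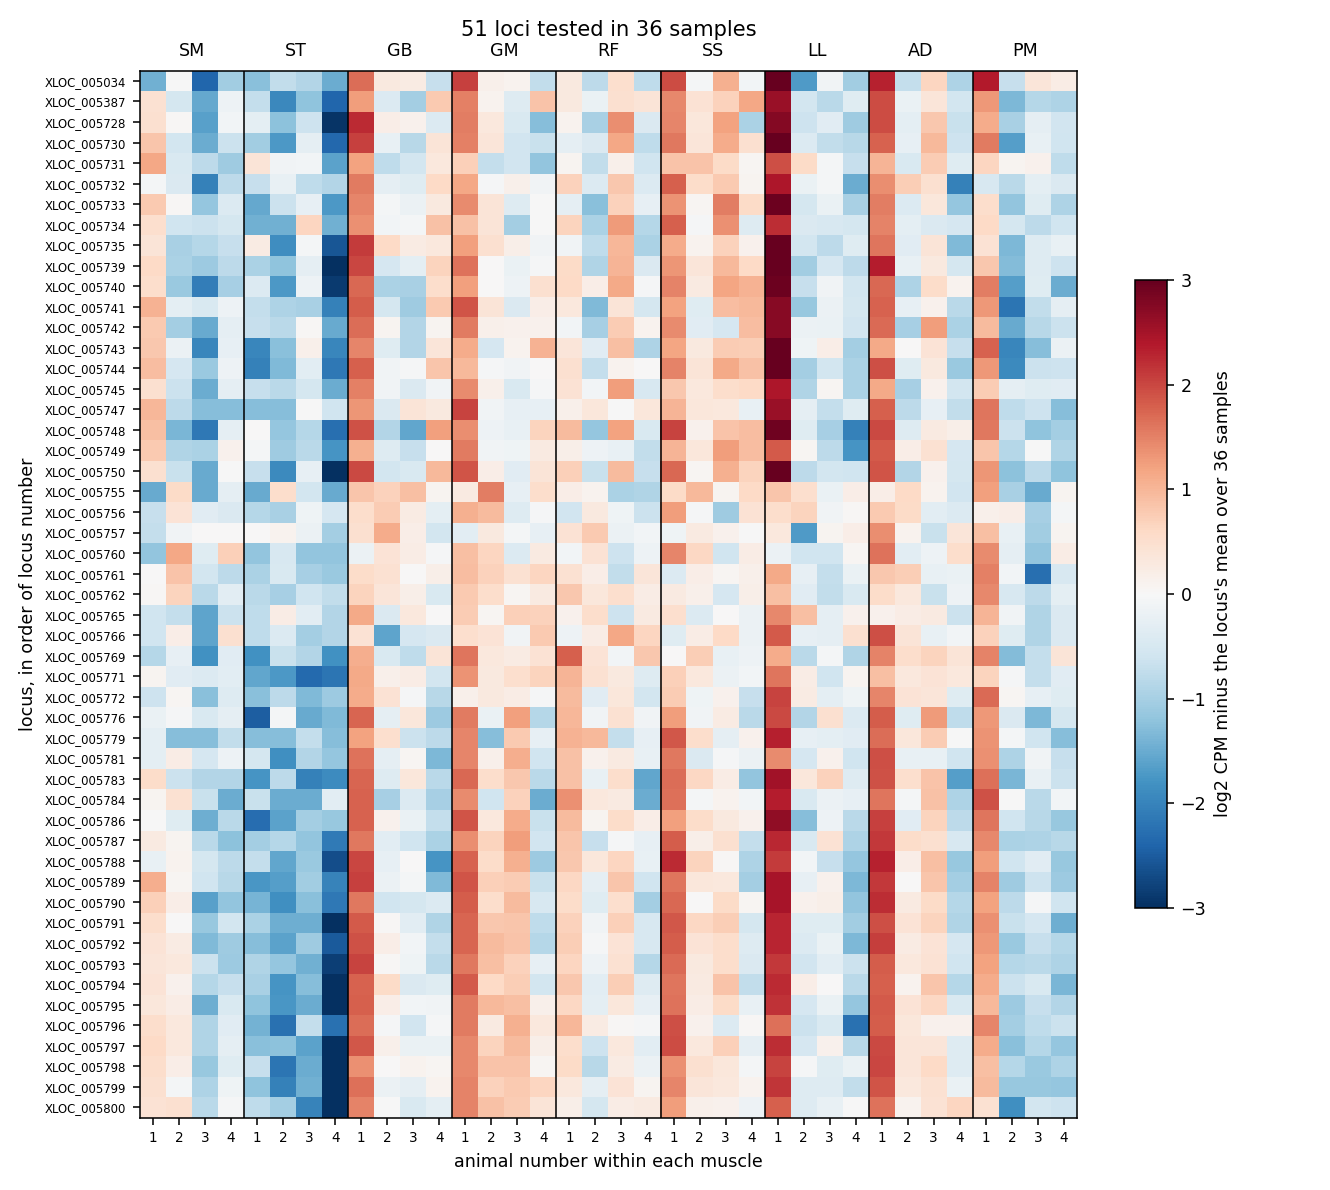
Log2 CPM of the 51 loci tested (rows, in order of locus number, both Ensembl loci on top) in the 36 samples (columns, by muscle and animal), minus the mean of each locus over all samples. Colours run from -3 to 3 and values beyond are drawn at the ends. The ST block is blue in most rows, the first column of most other blocks is red, and LL of animal 1 is the darkest red column.

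Among the 7 muscles other than ST and SS, the quasi-likelihood F-test of edgeR asked whether a locus differed between any of them, with the animal as a block. P-values were adjusted over all loci by the Benjamini-Hochberg method. At an FDR of 0.01 it called 1 of the 51 loci, the unannotated XLOC_005798 (F = 5.60, FDR = 0.00966). The share called over all 12461 loci tested was 3.61%, or 450. XLOC_005799 missed the threshold narrowly (F = 5.51, FDR = 0.0105). XLOC_005800 (FDR = 0.0172) and XLOC_005795 (FDR = 0.023) followed. Neither Ensembl locus passed, with an FDR of 0.239 for XLOC_005387 and 0.309 for XLOC_005034.

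The call of XLOC_005798 was lost when any 1 animal was left out, with an FDR of 0.025 without animal 1, 0.053 without animal 2, 0.073 without animal 3 and 0.025 without animal 4. The likelihood ratio test called 7 of the 51 loci, and 1155 of all 12461, and DESeq2 called 4, and 800 of all. At an FDR of 0.05 the quasi-likelihood test called 9 of the 51, and 1312 of all. Whether these loci were called more or less often than loci in general thus depended on the test and the threshold. An unadjusted p under 0.05 was reached by 18 of the 51 loci and by 27.1% of all loci tested. Of those 18, 14 have numbers from XLOC_005777 to XLOC_005800. So have 8 of the 9 that pass at an FDR of 0.05, while the other is XLOC_005771.

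XLOC_005798 had 17.6, 11.6, 11.5 and 6.56 CPM in GM and 12, 3.26, 2.68 and 3.14 CPM in PM. In SM it had 9.19, 7.22, 2.67 and 4.74 CPM, and in AD 26.0, 8.13, 9.65 and 4.66 CPM. The lowest GM sample lay above the PM samples of animals 2, 3 and 4, but under that of animal 1. In ST the locus had 3.72, 1.09, 1.98 and 0.215 CPM, and in SS 16.7, 8.85, 7.97 and 5.97 CPM.

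The 21 pairs of the 7 muscles were then compared one by one, at an FDR of 0.01 and a log2 fold change beyond 1 in size. In the comparison of GM with PM, 1 of the 51 loci was called, XLOC_005799, which was higher in GM by a log2 fold change of 1.51 (FDR = 0.0093). Loci higher in GM than in PM made up 0.0482% of all loci tested, 6 of 12461. Over the other 20 pairs, 0 of the 51 loci were called by edgeR's quasi-likelihood test, where 0.37% of the tests over all loci were. An unadjusted p under 0.05 was reached there by 0 to 24 of the 51 loci, depending on the pair, and by 7.69 to 21.2% of all loci tested. Over all 21 pairs, the likelihood ratio test made 5 calls of these loci among 1817 over all loci, and DESeq2 made 6 among 1178.

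XLOC_005799 is the unannotated locus with most counts. GM had 84.0, 48.4, 51 and 46.8 CPM in animals 1 to 4, and PM had 58.0, 13.4, 13.4 and 13 CPM. GM was higher in each animal, by 0.53, 1.83, 1.90 and 1.82 on the log2 scale, with a mean of 1.52 ± 0.66 (SD, n = 4). The PM sample of animal 1 overlapped the GM samples, while those of animals 2, 3 and 4 did not. The smallest difference was thus that of animal 1.

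In the remaining muscles XLOC_005799 had 41.9, 28.6, 15.5 and 27.2 CPM in SM and 36.9, 24.7, 39.6 and 31.2 CPM in RF. GB had 93.4, 26.1, 24.5 and 31.8 CPM, LL had 132, 22.6, 22.5 and 17.6 CPM, and AD had 110, 36.9, 41.2 and 25.9 CPM. ST had 12.7, 6.97, 10.7 and 3.43 CPM, and SS had 82.8, 38.6, 36.8 and 31.8 CPM. Outside animal 1, GM was the highest muscle of this locus. The difference between GM and PM was 1.84 without animal 1 (FDR = 7.2e-05) and 1.35 to 1.37 without animal 2, 3 or 4. In those last 3 fits it was no longer called, with an FDR of 0.12 without animal 2, 0.12 without animal 3 and 0.14 without animal 4.

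Further loci at the end of the number order, XLOC_005795, XLOC_005798 and XLOC_005800, had log2 fold changes of 1.32, 1.33 and 1.49 between GM and PM. Their FDRs of 0.042, 0.024 and 0.019 missed the threshold. In the Ensembl locus XLOC_005387 the fold change was 0.97 with an FDR of 0.29, and in XLOC_005034 it was -0.26 with an FDR of 0.88. GM was above PM in 4 of 4 animals for 25 of the 51 loci, against 10.3% of all loci tested.

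Fold changes over the 51 loci leaned one way in several pairs. SM had a lower fitted level than GM for all but 2 of the 51 loci, with a median log2 fold change of -0.93 against -0.01 over all loci tested. An unadjusted p under 0.05 was reached by 24 of them, each lower in SM, and by 20.1% of all loci. The median for LL minus PM was 0.79, with 22 loci at an unadjusted p under 0.05, each higher in LL, against 10.1% of all loci in either direction. Of the pairs, GM and AD were among the closest, with a median of 0.14 and 0 loci at an unadjusted p under 0.05, which 9.88% of all loci reached. These loci share animals and libraries, so their number is not a number of independent results.

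The profile over muscles changed along the locus numbers. The 73 unannotated loci were cut into 3 runs of consecutive numbers, XLOC_005728 to XLOC_005752 with 25 loci, XLOC_005753 to XLOC_005776 with 24, and XLOC_005777 to XLOC_005800 with 24. They hold 11615, 4718 and 40075 counts, and 18, 12 and 19 of their loci were tested. The cut is an equal division of the numbers, made after values of the loci were known, and the differences between runs are described without a test.

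In the run with the lowest numbers, SS was the highest muscle for 14 of 25 loci and GM for 1. In the middle run AD was highest for 8 of 24 loci, GM for 6 and SS for 4. In the run with the highest numbers, GM was the highest muscle for 15 of 24 loci and SS for 4. Over all loci tested, the highest mean was in SS for 14.9%, in GM for 11.1% and in AD for 8.35%. ST had the lowest mean in 22, 20 and 22 loci of the 3 runs. These counts for ST share the contrast that picked the stretch, and nothing is read from them. The counts for SS share it too and are a description.

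Over the tested loci, SS minus GM had a median of 0.49 on the log2 scale in the first run, -0.31 in the second and -0.20 in the third. It was above 0 in 17 of 18, 3 of 12 and 3 of 19 loci. ST lay under the mean of the 9 muscles by medians of -1.07, -0.83 and -1.62. GM lay above it by 0.36, 0.42 and 0.68, and PM below it by -0.38, -0.10 and -0.32. In the last run the median GM minus ST was 2.30, against 1.44 in the first and 1.28 in the second. The values of SS and ST by run share samples with the contrast that picked the stretch, and they are a description.

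**Figure D3:**
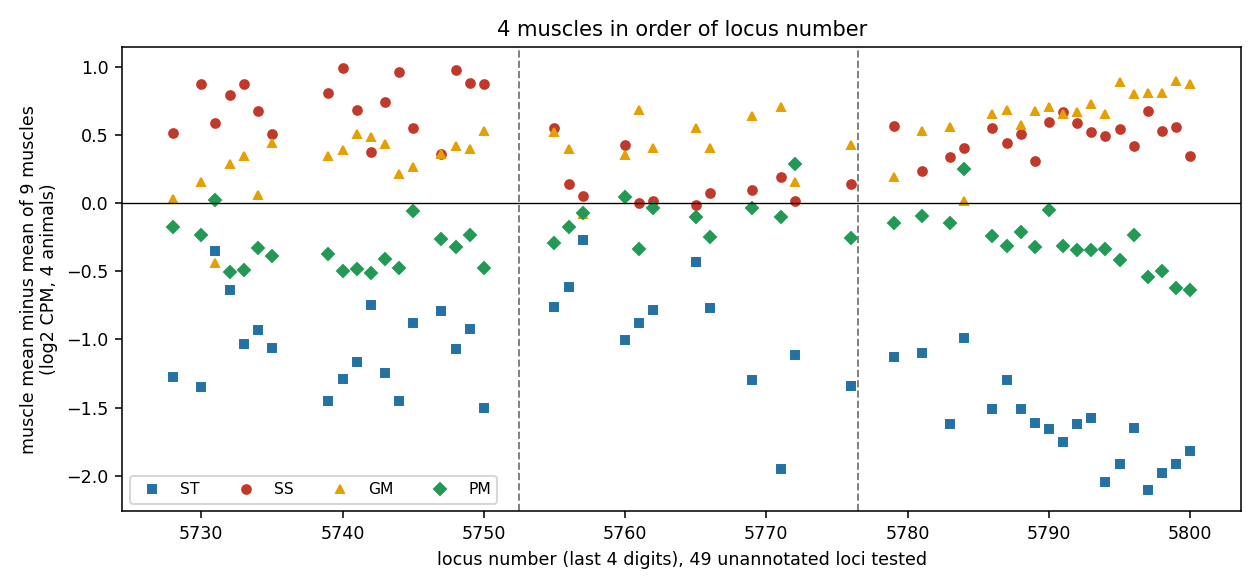
Mean log2 CPM of ST, SS, GM and PM minus the mean over the 9 muscles, for the 49 unannotated loci tested in order of locus number, with 4 animals per mean. Dashed lines separate the 3 runs of numbers. SS is above GM in most loci on the left and GM above SS in most on the right, and ST is lowest in nearly all.

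The loci rose and fell together over the samples. After each animal's mean was taken off, Pearson's r over the 36 samples between pairs of the 51 loci had a median of 0.65, with a range of -0.23 to 0.97. For pairs 1 to 5 numbers apart the median was 0.79, for pairs 6 to 20 apart 0.67, for pairs 21 to 40 apart 0.55 and for pairs 41 to 80 apart 0.68. Pairs within the 3 runs had medians of 0.75, 0.54 and 0.82. Pairs between the first and the third run had a median of 0.67, above those of the middle run with either of them, 0.50 and 0.62. XLOC_005387 had a median r of 0.84 with the first run, 0.60 with the second and 0.79 with the third. The loci share libraries and depth, and these values describe the samples.

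The spans with the next largest numbers of loci gave lower values. The median r was 0.14 between the 14 loci tested in the span on chromosome 3, which holds 1 unannotated locus. It was 0.51 between the 24 loci tested in the span on chromosome 6, of which 39 of 40 loci are unannotated. Animal 1 was highest in the mean for 11 of the 14 loci on chromosome 3 and for 0 of the 24 on chromosome 6, against 49 of 51 here. SS was above ST in 4 of 4 animals for 1 of the 14 and 16 of the 24.

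Outside the stretch, the locus whose pattern was most like that of XLOC_005387 was XLOC_017424 (ENSOARG00000008539) at chr23:34936044-35099472, with r = 0.87 over the 36 samples. It was also the one most like XLOC_005799, with r = 0.86. The others among the 5 most alike that both share were the unannotated XLOC_005830 at chr12:42078329-42081240, with r of 0.84 and 0.80, and XLOC_005637 (ENSOARG00000024888) at chr12:63515127-63762824, with r of 0.80 and 0.82. Only XLOC_005387 also had XLOC_010558 (ENSOARG00000003354) among its 5, with r = 0.81. Of the other 50 loci tested in the stretch, 9 were more like XLOC_005387 than the best locus outside, and 15 were more like XLOC_005799.

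The genes typical of slow fibres offer a comparison, since ERR gamma is known from slow muscle. The list holds 12 genes, of which 8 fell on a single locus through the coordinates that the study prints for them. The study chose these genes on differences between muscles in these samples, so their direction between ST and SS is not independent evidence. It also lists ATP2A2 between SM and SS and MYOZ2 between LL and SS, and it names MYOZ2 as higher in GM than in ST. Their results among the 7 muscles are thus not fully independent of that choice. Among the 7 other muscles, the joint test called 7 of the 8, where 3.61% of all loci tested were called. They include TPM3 (F = 26.0), a tropomyosin of slow fibres, MYL3 (F = 22.9), a myosin light chain, and MYOZ2 (F = 21.8), a protein of the Z-disc. The one not called was CASQ2, a calcium-binding protein of the sarcoplasmic reticulum, with an FDR of 0.094.

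Between GM and PM, the 8 slow fibre genes found on a single locus and most loci of the stretch had opposite signs. MYL3 had 64.0, 53.9, 64.9 and 32.1 CPM in GM and 182, 192, 206 and 159 CPM in PM, without overlap. It was called lower in GM, by a log2 fold change of -1.79 (FDR = 0.0018), in a direction that 0.0482% of all loci were called in. The mean log2 level was lower in GM than in PM for 8 of the 8 slow fibre genes, each with an unadjusted p under 0.05, and 1 of them, MYL3, was called. Such a p was reached by 12.4% of all loci tested, in either direction. The 8 genes share animals and libraries, so their number is not a number of independent results. For the 51 loci, the fitted level was higher in GM for 46, with a median of 0.86. Over all loci tested the median was 0.04.

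TPM3 shows the opposite signs between GM and PM on another scale. Its mean was 98.2 CPM in GM and 217 CPM in PM, whereas XLOC_005799 had means of 57.5 ± 17.7 CPM in GM and 24.4 ± 22.4 CPM in PM (SD, n = 4). TNNT1, the slow skeletal troponin T, had 121 CPM in GM and 255 CPM in PM. Both genes were also high in SS, at 140 and 224 CPM, and low in ST, at 14.9 and 23.1 CPM. Over the 36 samples the 8 genes had r of 0.44 to 0.55 with XLOC_005799, after each animal's mean was taken off. These samples include ST and SS, and both the stretch and the genes were picked on a difference between those muscles. A positive r is thus partly built in, and the values of r in this paragraph are a description. The names MYL2 and MYH7B each fell on 2 loci and were not assigned. The loci under MYL2 had r of 0.44 and 0.44 with XLOC_005799 and log2 fold changes of -1.08 and -0.997 between GM and PM. Those under MYH7B had r of 0.69 and -0.12 and fold changes of -0.07 and 0.08, with an unadjusted p of 0.87 and 0.62 in edgeR's fit. No test compared the slow fibre genes with the loci of the stretch as groups.

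**Figure D4:**
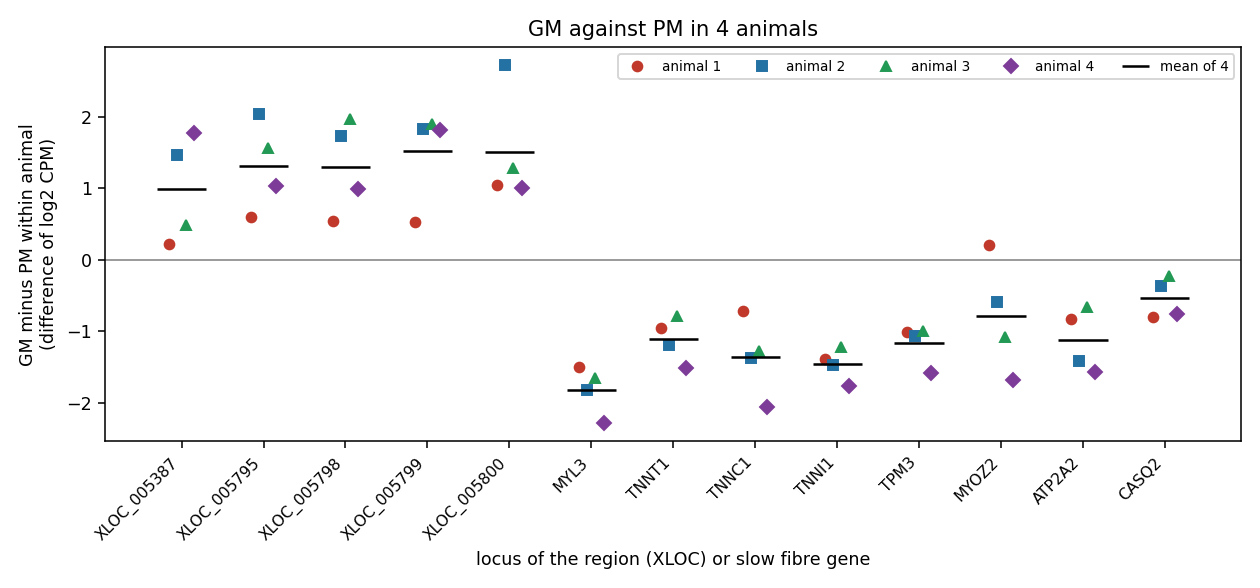
Difference of log2 CPM between GM and PM within each of the 4 animals (symbols) with their mean (bar), for 5 loci of the stretch and the 8 slow fibre genes found through coordinates. The 5 loci of the stretch are above 0 in all 4 animals, and the slow fibre genes are below 0 in all animals, except MYOZ2 in animal 1.

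Within 1 Mb on either side, 3 further loci reached 36 counts, and their levels were low. XLOC_005386 (ENSOARG00000010714) had 1.14, 2.90, 6.55 and 5.20 CPM in SS and means of 0.32 to 0.78 CPM in the other 8 muscles, at about the level of 3 counts. It was not low in ST alone, where it had 0.797, 0, 1.15 and 0.859 CPM. In SS it was lowest in animal 1, the animal in which the loci of the stretch were highest. XLOC_005389 (ENSOARG00000011440) had a highest level of 4.27 CPM, in SM of animal 3, and its ST samples, with 2.12, 2.83, 1.15 and 1.72 CPM, overlapped its SS samples, with 1.14, 1.31, 1.59 and 2.12 CPM. SS was the higher in 2 of 4 animals. The third, the unannotated XLOC_005727, whose number precedes those of the stretch, had means of 0.31 CPM in ST, its lowest muscle, to 1.32 CPM in RF, all near the level of 3 counts.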

How the data were processed

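Reads of 100 bases in pairs were aligned to build Oar_v3.1 with TopHat2 2.0.13 and assembled with Cufflinks 2.2.1 together with the Ensembl annotation, per the submitters' processing notes. The authors counted uniquely mapped reads per locus with HTSeq and deposited whole-number counts without normalization. Whether the counting used strand is not given in the sources used here. Loci with no Ensembl identifier carry the assembler's number, and loci of 1 span can share reads.

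Counts of the 31136 distinct loci were analysed in R 4.3.3. The filterByExpr function kept 12461 of them, with muscle as the group, and libraries were scaled by TMM in edgeR 4.0.16. The quasi-likelihood model held muscle and animal as terms and used all 36 samples. The joint test over 7 muscles used an FDR of 0.01, and the 21 pairs also used a log2 fold change of 1. Log2 CPM used a prior count of 2. DESeq2 1.42.0 and the likelihood ratio test were alternatives. The procedure was tested on simulated data. Samples are paired by the animal number in the labels. Deviations from muscle means correlated above 0.1 in 135 of 144 pairs of samples of 1 animal, with a median r of 0.23, and had a median of -0.09 between animals.

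Depth was 3699148 to 6427422 counts per sample. The members and lists were chosen with earlier results of these data known. All loci of the stretch with 36 counts are accounted for, and those that passed the filter are shown by sample in a plot. The lists also covered ERR partners, oxidative fuel genes, fast fibre genes and cell type markers. Their names could not be paired with loci, except FABP3 and SLC16A3, which fell on 2 loci each, like MYL2 and MYH7B, and were not assigned. No genome of the build was used, so no sequence is shown.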

Additional observations from a re-analysis of the deposited data

Results flagged for a closer look

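Within each muscle, the sample at either end was set against the other 3 for the sum of the unannotated loci and for 4 loci, which is 45 groups of 4. In 16 of them 1 sample lay far from the others by Dixon's ratio, and it was a sample of animal 1, at the high end, in 16 of 16. Chance flags about 1 in 20 such groups, and the groups are not independent, since they share libraries. In LL the sample of animal 1 had 1135 CPM for the sum, 132 CPM for XLOC_005387, 43.4 CPM for XLOC_005034, 132 CPM for XLOC_005799 and 26.6 CPM for XLOC_005798. In PM the same 5 quantities were 503, 54.0, 23.6, 58.0 and 12 CPM. In GB they stood apart for the sum at 734 CPM, XLOC_005799 at 93.4 CPM and XLOC_005798 at 16.6 CPM. In GM they stood apart for XLOC_005034 at 18.8 CPM and XLOC_005799 at 84.0 CPM, and in SS for XLOC_005799 at 82.8 CPM.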

How the results depend on the processing

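The count of loci of the stretch called in the joint test of 7 muscles, 1 of 51, was 7 with the likelihood ratio test, 4 with DESeq2, 0 with RLE size factors, 0 without the 4 loci with most counts and 0 with only the 28 samples of the 7 muscles. It was 0 without the block for animal, 24 of 75 without a filter and 9 at an FDR of 0.05. Leaving out each animal in turn gave 0 to 2. With at least 10 counts in every sample 4 loci were tested and 1 was called. The calls in pairs, 1 in all, became 5 with the likelihood ratio test, 6 with DESeq2, 49 without a filter and 16 at an FDR of 0.05, where the calls over all loci went from 935 to 1817, 1178, 3745 and 2450. The calls of these loci in pairs became 0 with RLE size factors, without the 4 loci, with at least 10 counts, with the 28 samples and without the block. They were 0 to 6 without 1 animal. Over all loci the calls in pairs were, in the same order, 918, 937, 489, 847 and 225, and 389 to 784 without 1 animal. Without LL of animal 1, an alternative chosen after seeing the data, 3 loci were called jointly and 1 in pairs. The cause of these changes was not tested. Over all loci the joint count of 450 was 1155 with the likelihood ratio test, 800 with DESeq2, 110 without the block, 1494 of 28849 without a filter, 1312 at an FDR of 0.05, 391 without LL of animal 1 and 144 to 316 without 1 animal. It was 419 with RLE size factors, 455 without the 4 loci and 394 of 5151 with at least 10 counts. With the 28 samples it was 369, and 47 loci of the stretch were tested there. The calls in pairs over all loci were 825 without LL of animal 1. Without the block the FDR of XLOC_005798 in the joint test was 0.52, and that of XLOC_005799 between GM and PM was 0.62. The log2 fold change of the latter stayed between 1.25 and 1.84 under all 13 alternatives run. Muscle levels were compared as a share of the animal's mean. Those of the summed unannotated loci and of XLOC_005387 moved by less than 1 SD under 72 of 72 alternatives each. The alternatives that leave out 1 animal could not fail this rule, since dropping 1 of 4 values cannot move their mean by 1 SD. They therefore say nothing on how stable the levels are. The loci with SS above ST in all animals used numbered 56 to 61. Leaving out 1 animal asks for this in the remaining animals only, so it could not lower that count. Depth limits the 24 loci that were not tested, with a median of 117.5 counts over the 36 samples.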
